A study of Mus musculus with 33 samples.

Results

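Paqr9 was followed as 1 gene of the 32285 listed in every count matrix, across cell types, tissues and biotin sorts. It was chosen by its measured counts in the phagocytes of bone in these samples, so its levels by cell class in bone and liver are given as a description, with no test. The samples came from mouse tissues labelled by SAMENT, a sortase-based method in which injected tumour cells tag their neighbours with biotin, and dissociated cells were sorted into biotin positive and biotin negative fractions after an overnight labelling period. In the first experiment mice received an intracardiac injection, and bone, brain, liver and lung were each collected as 4 biotin positive and 4 biotin negative samples. In the second, an injection that the labels name only IIA, bone was collected as 6 biotin positive and 6 biotin negative hashtagged samples run as 1 pool. The sources used here name no mouse strain, age or tumour line, and no unlabelled or tumour-free group was analysed here. The labels do not say whether replicates came from separate mice, so p-values measure only the spread between these samples.

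PAQR9 belongs to the progestin and adipoQ receptor (PAQR) family of membrane proteins with several transmembrane segments, and is also called membrane progesterone receptor epsilon. Other members bind progesterone or related steroids at the cell membrane (Paqr5, Paqr6, Paqr7, Paqr8) or adiponectin (Adipor1, Adipor2), and in liver PAQR9 has been described as acting on the stability of PPARA, a regulator of fatty acid oxidation. Kupffer cells are the resident macrophages of liver and clear aged red cells from blood. Bone marrow island macrophages hold maturing erythroblasts around them through adhesion molecules such as VCAM1, engulf the nuclei these cells expel, and recycle iron.

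The mouse gene (ENSMUSG00000064225) lies on the plus strand at chr9:95559657-95568023 in GENCODE M21 on GRCm38 (mm10). Its 8367 bases form 1 exon. The coding sequence of 1125 bases, before the stop codon, lies at chr9:95559959-95561083, and the 3′ untranslated region is 6940 bases long with the stop codon included. No other gene of that annotation overlaps it. The nearest gene upstream on the same strand, the non-coding Gm32281, ends 743 bases before it. Gm32281 had 0 UMIs in each Kupffer cell and bone marrow island macrophage sample with at least 10 cells.

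Levels are UMIs (unique molecules counted), CPM (Paqr9 UMIs per 1000000 UMIs, both summed over the cells named) and the share of cells with at least 1 UMI. CPM values are not scaled to transcript length and are compared only within a gene. Kept cells numbered 94 to 3505 per intracardiac sample, with 482617 to 44834665 UMIs in all, and 249 to 3480 per IIA sample, with 2149784 to 27903856 UMIs. The smallest library, biotin positive liver replicate 4, held 94 cells of which 1 was a mononuclear phagocyte. The 8 intracardiac samples with a given replicate number carried 8 different multiplexing tags and shared 0 barcode sequences, while 341 sequences were found in 2 or more samples with different numbers. Intervals on counts are exact 95% Poisson intervals and those on shares exact 95% binomial (Clopper-Pearson) intervals, and both cover counting error only. Cell classes were rebuilt from marker lists and their names stand for resemblance, so that Kupffer cell means Kupffer-like cell.

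In the intracardiac experiment 90.0% of the Paqr9 UMIs (1287 of 1430) were found in 2 macrophage classes that made up 2.93% of the kept cells. Kupffer cells held 898 UMIs in 464 of 1026 cells (45.2%, interval 42.1 to 48.3), and bone marrow island macrophages 389 UMIs in 190 of 597 cells (31.8%, interval 28.1 to 35.7). The remaining 53743 cells held 143 UMIs in 128 cells. Without the 8 samples numbered 2, which held most of the counts, the 2 classes still held 199 of 248 UMIs (80.2%). The background, read in cells that should lack the gene, was 0.211% of 13271 neutrophils (median 6066 UMIs per cell) and 0.136% of 5161 B cells (median 2259), beside medians of 5440 in Kupffer cells and 1365 in island macrophages. Over all samples 0.151% of 4621 T cells had a UMI. In biotin positive bone alone the shares were higher, at 0.381% of 1311 neutrophils, 1.76% of 227 B cells and 2.29% of 175 T cells. Cells with 2 or more Paqr9 UMIs numbered 216 among Kupffer cells, 90 among island macrophages, 1 among neutrophils and 0 among B cells. Outside the 2 macrophage classes the share of cells with a UMI was 0.657% in samples numbered 2, against 0.180%, 0.0895% and 0.0154% in those numbered 1, 3 and 4.

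**Figure D1:**
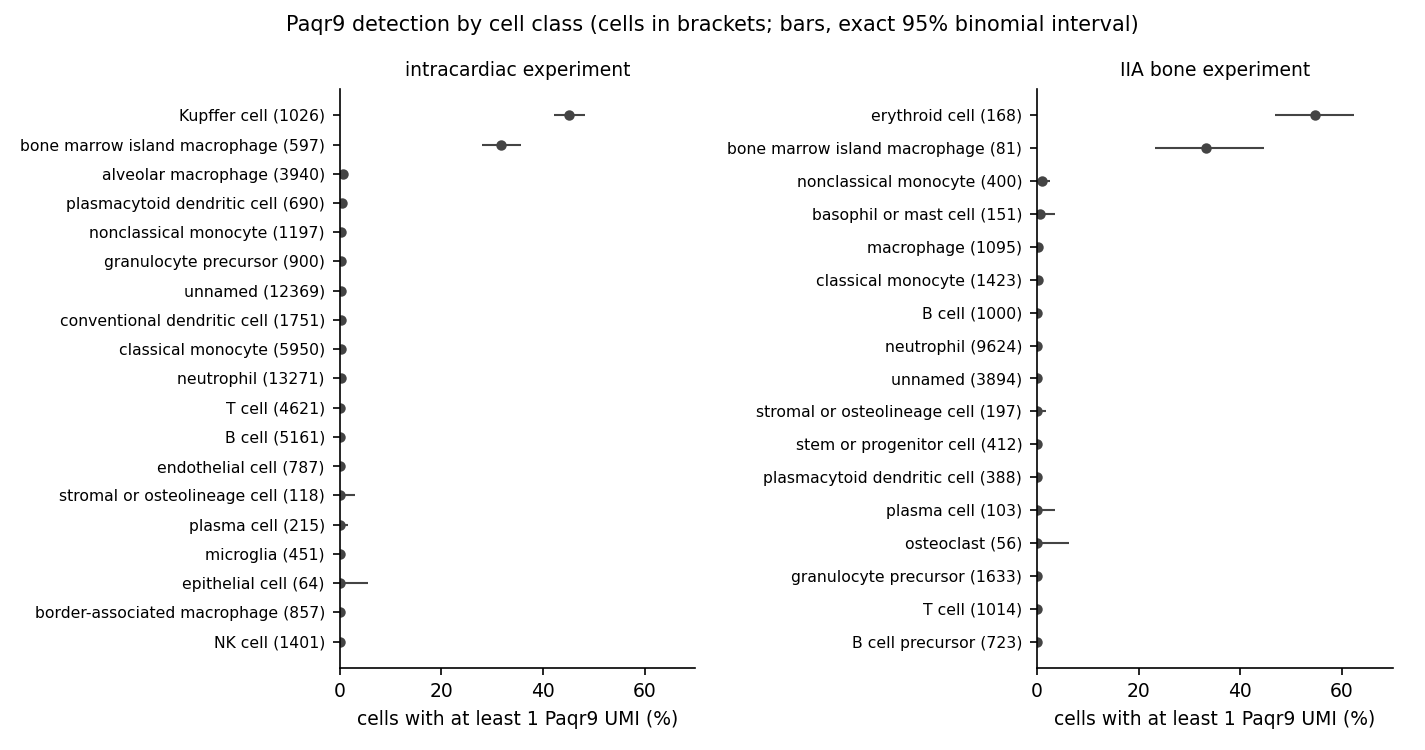
Share of cells with at least 1 Paqr9 UMI (x axis, percent) in each cell class with 50 or more cells (y axis, cell numbers in brackets), intracardiac experiment on the left and IIA bone on the right, with exact 95% binomial intervals as bars. Kupffer cells (45.2%) and bone marrow island macrophages (31.8%) stand out on the left, erythroid cells (54.8%) and bone marrow island macrophages (33.3%) on the right.

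The class called bone marrow island macrophage took its name from the listed markers, so they describe it and do not test the name. Its leading genes were Vcam1, Ccr3, Itgad and Spic, and 10 of the 12 listed markers were among those that defined it. In the 4 biotin positive bone samples Vcam1 ranged from 2040 to 15587 CPM. Spic, the transcription factor of heme-exposed macrophages, gave 145, 941, 7 and 1 UMIs in replicates 1 to 4, so the description rests on few molecules in replicates 3 and 4. Siglec1 (CD169) gave 23 and 72 UMIs in replicates 1 and 2 and 0 in the others.

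In these cells biotin positive bone replicates 1, 2, 3 and 4 gave 93, 278, 6 and 7 Paqr9 UMIs in 124, 323, 31 and 10 cells. The levels were 244, 286, 121 and 451 CPM, a mean of 276 ± 136 (SD, n = 4). In replicate 4, 6 of the 7 UMIs lay in 1 cell that also held erythroid RNA, and without cells of that kind replicates 1 to 4 gave 216, 298, 211 and 116 CPM. With cells taken by a gate on C1qa, C1qb and C1qc in place of clusters the mean was 53.9 CPM. The counting intervals of replicates 3 (44.5 to 264 CPM) and 4 (181 to 930 CPM) overlap those of replicates 1 and 2. The share of cells with a UMI was 37.9%, 41.5%, 9.68% and 20.0%, and the lower shares went with shallower cells (median 636 and 686 UMIs in replicates 3 and 4, against 1342 and 1818 in replicates 1 and 2). In the biotin negative sort the class had 21 cells over 4 samples, with 0 Paqr9 UMIs among 24066, which allows up to 153 CPM. That limit lies above the lowest level in the positive sort (121 CPM). No negative sample reached 10 such cells, so the sorts were not compared within island macrophages.

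Over all kept cells of bone, the same samples spread far more widely. The positive samples gave 6.16, 31.8, 0.421 and 0.511 CPM (121, 288, 6 and 7 UMIs), and the negative samples 0, 0.710, 0.190 and 0 CPM (0, 19, 5 and 0 UMIs). Island macrophages were 6.18%, 31.6%, 5.00% and 1.16% of the kept cells in the positive samples and at most 0.286% in the negative ones. Replicate 2 was thus highest in both, and the positive samples overlapped the negative ones. Because a class's share of a sample and its level per cell both enter such a sum, the all-cell values cannot tell them apart, whereas the values within the class can be read on their own.

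**Figure D2:**
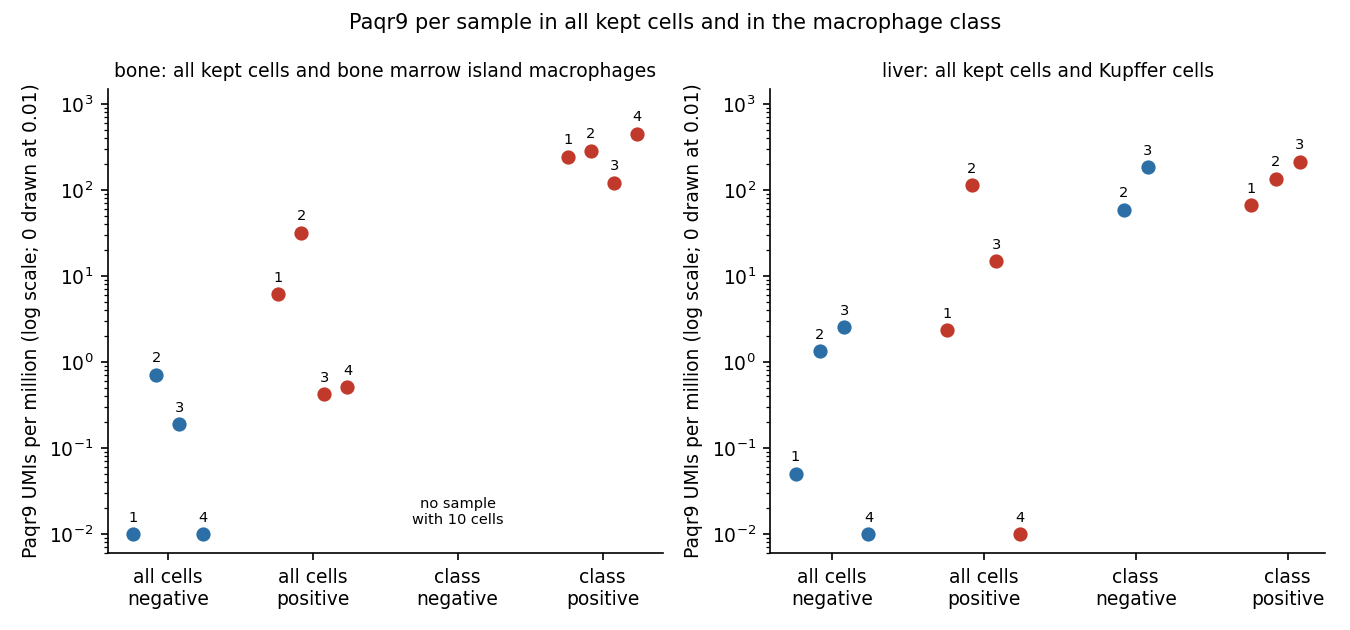
Paqr9 CPM per sample (y axis, log scale, values of 0 drawn at 0.01) over all kept cells and within the macrophage class of the tissue, for biotin negative (blue) and biotin positive (red) samples, numbered by replicate. In bone the all-cell values of the positive samples run from 0.421 to 31.8 and those of island macrophages from 121 to 451, and in liver the Kupffer cell values of both sorts lie between 58.9 and 213.

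Of the 10 listed Kupffer cell markers 9 were among the genes that defined this class, among them Clec4f (263 to 17973 UMIs per sample with at least 10 such cells) and Timd4, a receptor for engulfing dying cells. Of the 12 island macrophage markers 9 were among them too, so the marker counts alone do not part the 2 classes. Biotin positive replicates 1, 2 and 3 gave 18, 792 and 54 Paqr9 UMIs in 78, 818 and 71 Kupffer cells, or 66.4, 135 and 213 CPM (mean 138 ± 73.4, SD, n = 3). Biotin negative replicates 2 and 3 gave 6 and 19 UMIs in 19 and 27 cells, or 58.9 and 185 CPM. The ranges of the 2 sorts overlapped almost entirely, and in both replicates present in the 2 sorts the positive sample was the higher. With all Kupffer cells of a sort summed, 864 UMIs in 967 positive cells and 25 in 47 negative cells gave a ratio of 1.15 (exact 95% interval 0.774 to 1.79, counting error only). The share of cells with a UMI was 45.8% in the positive and 38.3% in the negative sort.

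Over all kept cells of liver the positive samples gave 2.35, 114, 14.8 and 0 CPM and the negative samples 0.0504, 1.34, 2.53 and 0. Kupffer cells were 79.0% of the kept cells in positive replicate 2, 9.56% in replicate 3, 6.39% in replicate 1 and 0% in replicate 4, against 0.762% and 1.74% in negative replicates 2 and 3. The order of the all-cell values in the positive samples was therefore the order of their Kupffer cell shares.

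Kupffer cells and island macrophages overlapped in level. In order, the samples ran 58.9, 66.4, 135, 185 and 213 CPM for liver and 121, 244, 286 and 451 CPM for bone. Clec4f, which marks Kupffer cells, differed between the 2 classes in their own tissues. Paqr9 stood at 2.28 to 6.27 UMIs per 100 Clec4f UMIs in the 5 Kupffer samples and at 275 per 100 in the island macrophages of bone positive replicate 2 (278 Paqr9 and 101 Clec4f UMIs). Bone positive replicate 1 gave 93 Paqr9 UMIs beside 1 of Clec4f, replicate 3 gave 6 beside 1 and replicate 4 gave 7 beside 0. The 13 island-class cells of liver positive replicate 2, with 1 Paqr9 and 21 Clec4f UMIs, lay within the Kupffer range.

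A few cells of both classes were assigned to other tissues. Cells of the Kupffer class outside liver numbered 12 in 7 samples and gave 9 UMIs in 3 cells. Cells of the island macrophage class outside bone numbered 88 in 21 samples and gave 5 UMIs in 4 cells, or 15.5 CPM (interval 5.02 to 36.1), beside 267 CPM (interval 241 to 295) in bone. In the largest such group, 15 cells of biotin positive liver replicate 1, Vcam1 was at 148 CPM, Spic at 0 and the summed erythroid list at 117798 CPM, so these cells go against the class name.

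Erythroid cells were the other place where the gene was found. The IIA bone experiment held 168 erythroid cells, with all 12 listed erythroid markers among those that defined the class, and they carried 214 of that experiment's 271 Paqr9 UMIs (79.0%) in 92 cells (54.8%, interval 46.9 to 62.4). In the 6 biotin negative samples the level ran from 88.6 to 178 CPM, with a mean of 131 ± 36.7 (SD, n = 6), and the share of cells with a UMI was 55.1% ± 4.04 (SD, n = 6). Biotin positive replicate 5, with 13 such cells, gave 107 CPM. All 214 UMIs lay in cells with at least 1 UMI of Alas2 (heme synthesis), Klf1 (erythroid transcription), Car1 and Car2 (carbonic anhydrases) or Slc4a1 (the anion exchanger of red cells). These genes are among the markers that named the class, and 167 of the 168 cells held such a UMI, so nothing is read from that. Vcam1 was at 7.25 CPM in erythroid cells of at least 2000 UMIs with a Paqr9 UMI, and Spic, Cd5l and Siglec1 were at 0, 0 and 0.806 CPM.

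IIA bone also had 81 island macrophages, all in the biotin positive sort, with 45 Paqr9 UMIs in 27 cells (33.3%, interval 23.2 to 44.7). The 4 samples with at least 10 such cells, replicates 2, 3, 5 and 6, gave 4, 15, 7 and 8 UMIs, or 107, 165, 101 and 203 CPM (mean 144 ± 48.8, SD, n = 4). The intracardiac island macrophages of bone ran from 121 to 451 CPM, or from 116 to 298 without cells holding erythroid RNA, and the 2 experiments were not tested against each other. In IIA bone the counting interval of every one of the 4 reaches above 200. The other macrophages of IIA bone, 1095 cells led by different genes, gave 2 UMIs, and 56 osteoclasts gave 0. For the 54 biotin positive osteoclasts of at least 2000 UMIs, that allows a share of up to 6.60% of cells with a UMI. The remaining 22113 cells outside the island macrophage and erythroid classes held 12 UMIs in all.

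**Figure D3:**
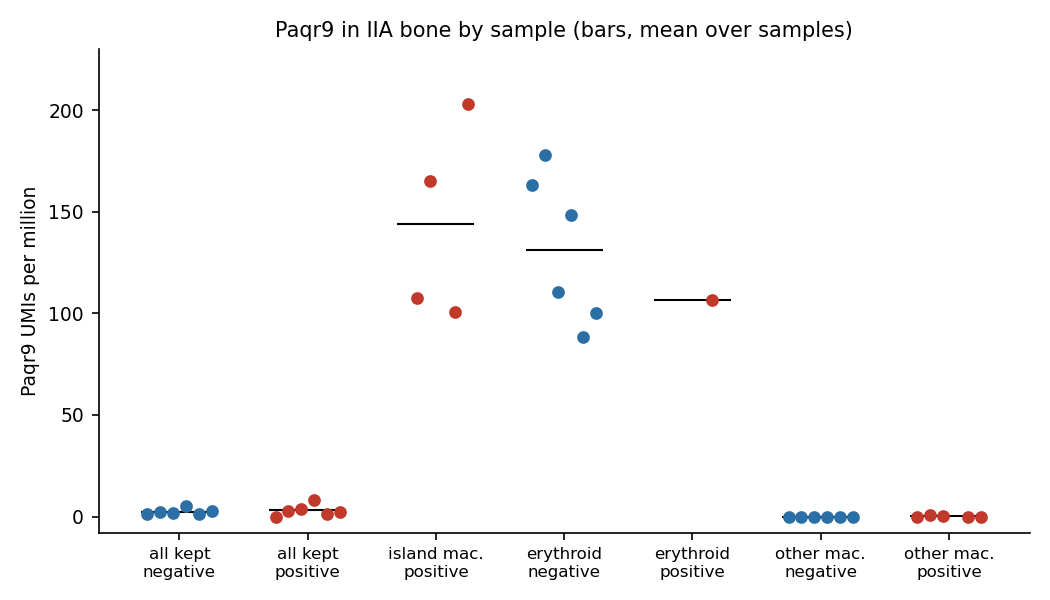
Paqr9 CPM per hashtagged sample of IIA bone (y axis) over all kept cells, in island macrophages, in erythroid cells and in other macrophages, by biotin sort (blue negative, red positive), with the mean over samples as a bar. Island macrophages (101 to 203) and erythroid cells (88.6 to 178 in the negative sort) overlap, and other macrophages lie near 0.

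Since erythroid cells carry the gene, erythroid RNA was measured inside the macrophage classes. In Kupffer cells 880 of 898 Paqr9 UMIs lay in cells without any UMI of those 5 erythroid genes, and in intracardiac island macrophages 349 of 389. Cells holding such a UMI were few, 16 of 1026 Kupffer cells and 35 of 597 island macrophages. The shares of Paqr9 UMIs thus did not exceed the shares of cells without one. Biotin positive bone replicate 4 was the exception, and it was left with 1 UMI in 9 cells once the cell holding erythroid UMIs was taken out, a setting chosen after the data had been seen. In IIA island macrophages 10 of 81 cells held such a UMI. There 32 of 45 Paqr9 UMIs lay in the cells without one, in which the 4 samples gave 109, 156, 84.5 and 192 CPM. The intracardiac experiment had no erythroid class, and the 12 cells of other classes with UMIs in at least 3 of the 5 erythroid genes gave 10 Paqr9 UMIs. Red cells were lysed where present, per the labels' protocols.

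RNA of other cell types was also counted in the macrophage classes. The summed neutrophil list (12 genes) stood at 7927 to 108308 CPM in the 4 island macrophage samples of bone and at 7887 to 39450 CPM in the 5 Kupffer samples, highest in replicate 1 of each. All 12 erythroid markers together, haemoglobins included, stood at 670 to 58262 CPM in island macrophages, highest in bone positive replicate 4, and at 29.2 to 4975 CPM in Kupffer cells. Their part in the Paqr9 level was not tested beyond the values above.

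Microglia (451 cells) and border-associated macrophages (857 cells) gave 0 UMIs, which allows shares of up to 0.815% and 0.430% of cells with a UMI. Alveolar macrophages of biotin positive lung gave 2, 20, 0 and 0 UMIs in 1380, 1923, 459 and 100 cells of replicates 1 to 4, at most 1 UMI per cell and at most 1.07 CPM. In replicate 2 that was 1.04% of the alveolar macrophages, beside 0.657% of all cells outside the Kupffer cell and island macrophage classes in samples numbered 2, a group that includes them. In biotin positive liver 23 cells of the alveolar macrophage class gave 6 UMIs in 2 cells (25.3 CPM), up to 5 in a cell. Classical monocytes gave 13 UMIs in 5950 cells and nonclassical monocytes 4 in 1197, shares of 0.218% and 0.334%. In IIA bone 4 of 400 nonclassical monocytes had a UMI (1.00%, interval 0.273 to 2.54), above the 0.0208% of IIA neutrophils.

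Brain and lung had no part in the choice of the gene, so the difference between sorts was tested there. In mononuclear phagocytes of brain, which joined all macrophage and monocyte classes, the positive samples gave 0, 1, 0 and 1 UMIs and the negative samples 1, 1, 0 and 0. The mean levels were 0.223 ± 0.260 and 0.240 ± 0.293 CPM (SD, n = 4 each), and the difference was smaller than the SD of either group (exact two-sided permutation test, p = 1.00). In lung the positive samples gave 2, 20, 0 and 0 UMIs and the negative samples 0, 15, 0 and 0. The means were 0.303 ± 0.509 and 1.13 ± 2.26 CPM, again less apart than the SD of the negative samples (exact two-sided permutation test, p = 1.00), and replicate 2 held nearly all the counts in both sorts. Over all kept cells the difference, positive minus negative, was 0.170 CPM in brain (exact permutation p = 0.514) and -0.341 CPM in lung (exact permutation p = 0.714). With single samples left out the brain value ran from 0.0267 to 0.295 CPM. All 4 tests had an adjusted p of 1.00 (Benjamini-Hochberg), and the smallest p that 4 samples against 4 allow is 0.0286. The tests took the samples as unpaired. In lung the sign of both differences rests on negative replicate 2, without which they were 0.303 and 0.203 CPM. Of the 15 UMIs of its phagocytes 12 lay in its 29 macrophages, and 11 of these 12 in the 4 cells of the Kupffer class and 4 of the island macrophage class, while its 21 alveolar macrophages gave 1. No other negative lung sample had at least 10 macrophages, so the sorts of lung were not tested in macrophage classes alone.

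In bone and liver the cells summed as mononuclear phagocytes differed in make-up between the sorts. Monocytes were 95.5% to 99.3% of the phagocytes in biotin negative bone and 9.51% to 66.7% in biotin positive bone, and the corresponding ranges in liver were 93.7% to 99.4% and, over replicates 1 to 3, 1.29% to 67.7%. Monocytes also went from 85.0% to 98.3% of the phagocytes in biotin negative brain to 1.83% to 11.3% in biotin positive brain. In lung they went from 93.1% to 99.6% to 0.922% to 30.9%, and in IIA bone from 68.6% to 96.8% to 1.57% to 64.3%. Phagocytes of biotin positive bone gave 52.3, 200.8, 26.4 and 43.4 CPM and those of biotin negative bone 0, 0.599, 0 and 0 (2 UMIs in all). The groups did not overlap, in a comparison in which 0.692% of all genes tested were called higher in the positive sort, a background from which nothing is read here because the gene was chosen on it. In liver the 3 positive samples with at least 10 phagocytes gave 8.96, 133 and 143 CPM and the 4 negative samples 0.115, 3.17, 7.04 and 0, a log2 fold change of 4.81 ± 1.12 (SE, edgeR quasi-likelihood fit). Leaving out single samples moved it between 4.07 (negative replicate 1) and 6.17 (negative replicate 3). Within the macrophage classes alone the liver value was 0.25 ± 0.80. In IIA bone the positive samples gave 0, 2.52, 6.56, 78.0, 10.8 and 24.6 CPM and the negative samples 0 to 0.902, with 4 UMIs among 6 samples. The positive samples were above every negative sample in 5 of 6 cases, positive replicate 1 being at 0 UMIs. These values used the contrast that chose the gene, or bone phagocytes of the kind it was chosen in, and no p is given for them.

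The share of cells with a UMI went with depth per cell. In Kupffer cells the share with a UMI was 18.4% at 500 to 1000 UMIs per cell and 63.5% at 8000 or more, while the level was 252 and 123 CPM in those bins (10 and 505 UMIs). In intracardiac island macrophages it was 12.8% at 500 to 1000 UMIs and 71.8% at 4000 to 8000, and 52.1% in the 48 cells of 8000 or more. After each cell had been thinned to 2000 UMIs, with 159 and 280 shallower cells left out, the share was 21.9% of 808 Kupffer cells of positive liver (interval 19.1 to 24.9) and 39.4% of 208 island macrophages of positive bone (interval 32.7 to 46.4), against 50.7% and 61.5% unthinned in the same cells. Kupffer cells of negative liver gave 23.5% of 34 cells (interval 10.7 to 41.2), and IIA island macrophages 26.5% of 49 (interval 14.9 to 41.1). Erythroid cells of negative IIA bone gave 19.1% of 131 cells. Neutrophils thinned in the same way were at or below 0.135% in each tissue and sort save biotin positive brain, where 1 of 263 cells had a UMI (0.380%).

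**Figure D4:**
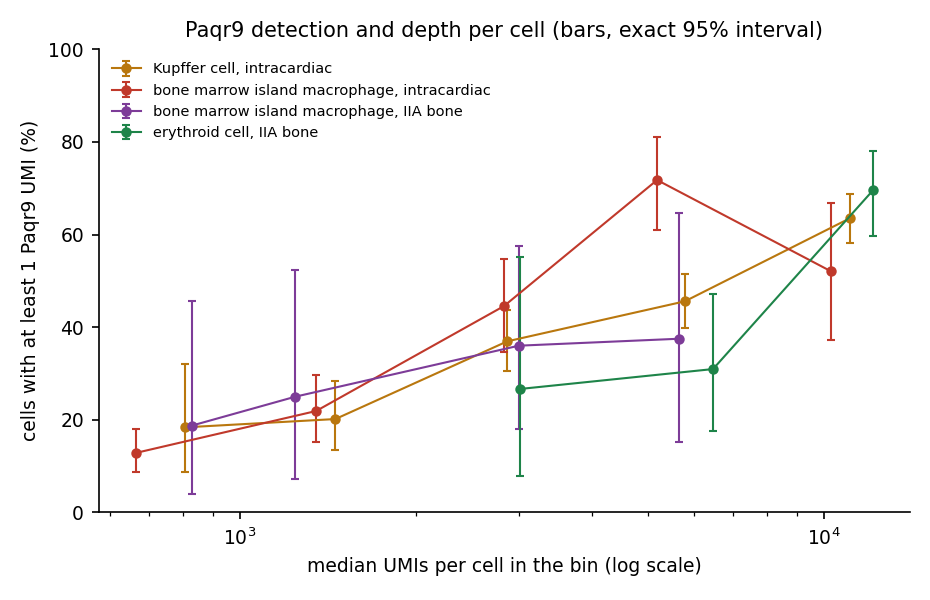
Share of cells with at least 1 Paqr9 UMI (y axis, percent, exact 95% binomial intervals) against the median UMIs per cell in bins of depth (x axis, log scale) for Kupffer cells, island macrophages of both experiments and erythroid cells, in bins of at least 10 cells. Kupffer cells run from 18.4% to 63.5%, and island macrophages reach 71.8% at 4000 to 8000 UMIs.

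Among biotin positive bone island macrophages of at least 2000 UMIs, 128 cells had a Paqr9 UMI and 80 did not (median 4967 and 3503 UMIs per cell). As a description, Vcam1 was at 14255 CPM in the first and 9155 in the second. Spic was at 1005 and 525 CPM, and Ccr3, a chemokine receptor, at 1006 and 471 CPM. In IIA island macrophages with and without a Paqr9 UMI, Spic (291 and 374 CPM) and Ccr3 (157 and 278 CPM) ran the other way, while Vcam1 (3760 and 3180 CPM), Cd5l (1320 and 513 CPM) and S100a8 (5207 and 24239 CPM) differed in the same direction as in the intracardiac cells. S100a8, an abundant neutrophil gene, was lower in the bone cells with Paqr9 of the intracardiac experiment, at 8348 against 29956 CPM. Among Kupffer cells of positive liver the 410 cells with a UMI and the 398 without had Clec4f at 3314 and 2802 CPM, Spic at 145 and 88.8, Cd5l at 4138 and 3394, and Vcam1 at 1539 and 1799. Hbb-bs, a haemoglobin gene, was at 47.2 CPM in Kupffer cells with a Paqr9 UMI and 730 in those without, and at 600 and 129 CPM in bone island macrophages. In IIA island macrophages it was at 9772 CPM in the 20 cells with a UMI and 484 in the 29 without, and 25.0% and 10.3% of them held a UMI of the 5 erythroid genes. Its part in these differences was not tested.

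The genes whose pattern was most like that of Paqr9 were sought over 215 units of the intracardiac experiment, a unit being the summed counts of 1 cell class in 1 sample with at least 20 cells. By Pearson correlation of log2(CPM + 1) among 15540 genes the first 10 were Slc45a3 (r = 0.75), Cd5l (0.73), Kcnj16 (0.72), Kcnj10 (0.67), Kcna2 (0.67), Ccdc148 (0.67), Chp2 (0.66), Fcna (0.66), Epb41l3 (0.65) and Smc1b (0.63). Units of a sample share its library and depth, so these are descriptions. Cd5l encodes a secreted scavenger protein of tissue macrophages, Fcna a ficolin that binds microbial sugars, Slc45a3 a transporter, and Kcnj16, Kcnj10 and Kcna2 potassium channel subunits. Over the 20 macrophage units alone r was 0.95 for Slc45a3, 0.94 for Cd5l and 0.90 for Ccdc148, and 0.59 for Chp2, and 2 of the 10 were among the first 10 there. In IIA bone, over 89 units, 5 of the 10 fell under the count minimum and were not compared. None of the other 5 was among the first 10, with r = 0.54 for Kcnj10, 0.41 for Cd5l and 0.38 for Slc45a3. There the first were Add2 (0.81), Ermap (0.70) and Hba-a2 (0.68), genes of the red cell membrane and haemoglobin. With Spearman correlation 5 of the 10 intracardiac genes remained in the list.

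The other PAQR genes are given for how each varies over cell classes, since CPM does not compare levels between genes. In Kupffer cells (n = 5 samples) Paqr9 was at 132 ± 68.9 CPM (SD), Paqr7 at 11.5 ± 3.29, Paqr4 at 8.14 ± 2.98, Paqr5 at 3.94 ± 5.32, Paqr3 at 2.01 ± 4.31 and Paqr8 at 0.102 ± 0.229. Adipor1 was at 278 ± 41.4 there, Adipor2 at 73.6 ± 13.7, and Mmd, the monocyte to macrophage differentiation gene, at 30.7 ± 16.9 CPM. Paqr6 and Mmd2 were at 0 UMIs in Kupffer cells, island macrophages, alveolar macrophages and microglia of the intracardiac experiment, and Paqr6 was at 2.75 ± 5.50 CPM (n = 4) in island macrophages of IIA bone. Of the 9 intracardiac classes compared, island macrophages had the highest mean of Paqr9 (164 ± 170 CPM, n = 7). Kupffer cells had the highest mean of Paqr4 and of Paqr5. For Paqr4 the lead over alveolar macrophages (6.91 ± 3.77 CPM) was smaller than the SD of either class. Adipor2 was at 585 ± 61.5 and Mmd at 90.2 ± 16.2 CPM in alveolar macrophages (n = 6), and Paqr7 at 56.4 ± 11.6 CPM in microglia (n = 5).

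**Figure D5:**
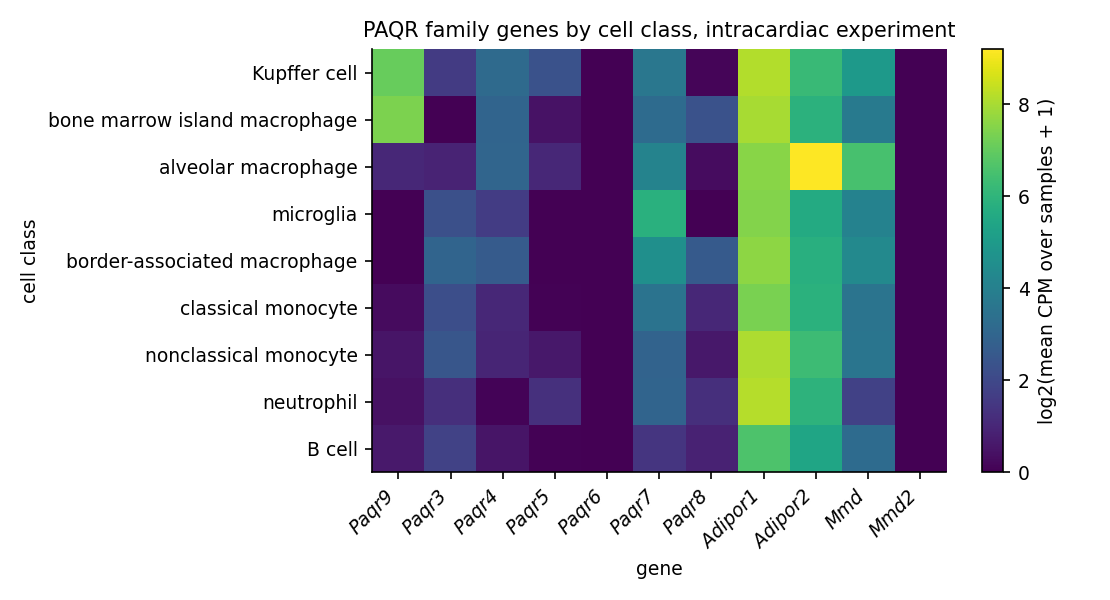
Mean level over samples of Paqr9 and 10 other PAQR family genes (x axis) in 9 cell classes (y axis) of the intracardiac experiment, colour giving log2(mean CPM + 1). Paqr9 is bright in Kupffer cells and island macrophages alone, Adipor2 is brightest in alveolar macrophages, and Paqr7 in microglia. The island macrophage row averages 7 samples, 4 of bone, 2 of liver and 1 of lung, with a Paqr9 mean of 164 CPM beside 276 in bone alone.

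The calls that follow compare phagocytes whose monocyte share differed between the sorts as given above. An alternative with macrophage classes alone was added after seeing the data. The listed genes called went from 19 to 0 in brain (1 of 42 at an unadjusted p under 0.05, edgeR), from 9 to 0 in liver (0 of 39) and from 26 to 19 in IIA bone. In lung 1 negative sample was left, so the 25 listed genes called there were not tested in macrophage classes alone. Between the sorts, 0 of 4 tested family members other than Paqr9 passed in bone phagocytes, 0 of 4 in brain and 0 of 5 in liver (edgeR quasi-likelihood test, adjusted p under 0.05 over all genes tested), and 1, 1 and 0 had an unadjusted p under 0.05. Of all genes tested, 0.692% were called higher and 0% lower in the positive sort in bone, 3.73% and 0.266% in liver, 19.8% and 20.2% in brain, 25.1% and 23.1% in lung, and 15.8% and 13.2% in IIA bone. In lung 3 of 5 family members rose in the positive sort. They were Adipor2 by 2.57 ± 0.21 on the log2 scale (SE, adjusted p = 2.65e-05), Mmd by 2.19 ± 0.18 (adjusted p = 2.65e-05) and Paqr4 by 3.42 ± 0.52 (adjusted p = 0.000478), all from edgeR. In IIA bone Mmd rose by 0.74 ± 0.22 (edgeR adjusted p = 0.0197) and Adipor2 fell by 0.40 ± 0.12 (edgeR adjusted p = 0.0216), and 3 of 5 did not pass. Paqr7 and Adipor1 passed in none of the 5 comparisons.

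Iron and heme recycling, a function of both macrophage classes that held Paqr9, was read from a list of 15 genes. Of these, Slc40a1, Hmox1, Spic and Cd163 are also among the markers that named the macrophage classes, and Hp among those of classical monocytes. They thus helped choose the cells summed, and their calls are a description. In bone 2 of 13 tested members rose in the positive sort and 0 fell, with a median log2 fold change of 1.32 beside 0.01 over all genes tested. They were Slc40a1 (ferroportin, the iron exporter), by 5.31 ± 0.89 (edgeR adjusted p = 0.0303), and Blvrb (biliverdin reductase B), by 1.32 ± 0.26 (adjusted p = 0.0468). In liver 2 of 14 rose, again Slc40a1 by 4.96 ± 0.93 (edgeR adjusted p = 0.0388) and Blvrb by 1.63 ± 0.28 (adjusted p = 0.0381), with a median of 1.39 beside 0.05. In IIA bone 12 of 13 rose and 1 fell, with a median of 1.93 beside -0.01. Among them Hmox1 (heme oxygenase 1) rose by 4.46 ± 0.48 (edgeR adjusted p = 8.05e-06) and Slc48a1, a heme transporter, by 2.24 ± 0.26 (adjusted p = 1.65e-05). In brain 4 of 13 rose and 1 fell, and in lung 4 of 12 rose and 2 fell.

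The list for erythroid contact and engulfment (14 genes) had 2 of 8 tested members higher in bone, 7 of 12 in liver, 8 of 10 in brain, 5 of 9 in lung and 8 of 10 in IIA bone, and none lower in any of the 5. Vcam1, Siglec1, Mertk, Axl and Timd4 are also among the markers that named the macrophage classes. Their calls are a description too, since these genes helped choose the cells summed. Vcam1 rose by 7.33 ± 1.29 in bone (edgeR adjusted p = 0.0337) and by 6.38 ± 0.54 in IIA bone (adjusted p = 8.28e-07). Mertk, a receptor for engulfing dying cells, rose by 3.64 ± 0.75 in liver (edgeR adjusted p = 0.0417) and by 6.53 ± 0.47 in IIA bone (adjusted p = 2.38e-07). Stab1, a scavenger receptor, rose in brain by 3.86 ± 0.73 (edgeR adjusted p = 0.00261) and in IIA bone by 4.95 ± 0.54 (adjusted p = 9.42e-06). Gas6, a ligand of MERTK and AXL, had 368 UMIs in the positive and 0 in the negative samples of IIA bone. It thus passed the filter only through the positive sort, and it is counted among the 8 there. Axl, the second gene called in bone and named after its value was seen, rose there by 5.00 ± 0.91 (edgeR adjusted p = 0.0377).

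Fatty acid oxidation and progesterone genes were read because of the roles described for PAQR9 and its family. Of the genes for PPARA and fatty acid oxidation 0 of 9 tested passed in bone and 0 of 9 in liver (1 and 0 at an unadjusted p under 0.05, edgeR), with medians of 0.19 and 0.13, while 7 of 9 rose in lung and 1 of 9, Cpt1a, fell in brain by 1.14 ± 0.20 (edgeR adjusted p = 0.00204), named after its value was seen. In lung Cpt2 rose by 1.91 ± 0.19 (edgeR adjusted p = 5.02e-05), Hadha by 0.89 ± 0.11 (adjusted p = 0.000176) and Hadhb by 1.21 ± 0.18 (adjusted p = 0.000433), all enzymes of fatty acid oxidation. Of the other progesterone binding or signalling genes 0 of 8 passed in bone and 0 of 9 in liver (1 and 4 at an unadjusted p under 0.05, edgeR), 5 of 9 rose in brain and 4 of 9 in lung, and in IIA bone 1 of 8 rose and 1 fell. Nenf, a small heme-binding secreted protein, rose in brain (1.52 ± 0.15, edgeR adjusted p = 0.000228), lung (1.28 ± 0.12, adjusted p = 4.45e-05) and IIA bone (1.03 ± 0.16, adjusted p = 0.000179). Pgrmc1 rose in brain by 1.11 ± 0.19 (edgeR adjusted p = 0.00167) and in lung by 1.35 ± 0.19 (adjusted p = 0.000354), and Pgrmc2 in brain by 0.62 ± 0.18 (adjusted p = 0.021). Ncoa1 fell in IIA bone by 0.84 ± 0.17 (edgeR adjusted p = 0.00139) and rose in lung by 0.67 ± 0.24 (adjusted p = 0.0426).

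Single samples decided the number of listed genes called in bone and liver. In bone the 4 calls became 0 once negative replicate 1 was left out and 2 once negative replicate 3 was. They became 8 with positive replicate 4 left out and 11 with positive replicate 3 left out. In liver the 9 calls became 0 when any negative sample, positive replicate 2 or positive replicate 3 was left out, 24 without positive replicate 1, and 16 with the replicate number as a block, which took all genes called there from 390 to 599. The difference between tissues in these lists was not tested.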

How the data were processed

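Values are UMI counts per gene and cell barcode, deposited by the authors and written by Cell Ranger 6.1.2 (intracardiac) and 7.1.0 (IIA), per the file headers. Build mm10 and Seurat are named in the submitters' processing notes. Other deposited columns hold barcodes and gene names. Paqr9 and the gene lists were chosen with earlier results of these data known. Cells with at least 500 UMIs, 200 genes and at most 15% mitochondrial UMIs were kept (55366 of 57065 intracardiac barcodes). IIA cells were assigned to the hashtag with at least 10 counts and 3 times the next (22685 of 26666, 22362 kept). Doublets were kept, and leaving out the top 5% of Scrublet scores was an alternative. Clusters (scanpy 1.11.5, 2000 variable genes without Paqr9, 30 components, 15 neighbours, resolution 1.0) were named from 27 marker lists. Counts were summed per sample over at least 10 cells and fitted with edgeR 4.0.16 (quasi-likelihood, TMM, filterByExpr), each tissue alone, and checked on simulated data. Paqr9 failed the filter in brain, lung and IIA bone, where CPM was used. Named genes were Paqr9, the PAQR family, at most 4 called genes per list with the smallest adjusted p, and the 10 most alike, save 1 gene that is not reported here. Samples with the same number deviated together in brain, liver and lung (every correlation 0.22 or higher), which pairs them. The main fits and the permutation tests did not use this pairing.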

Additional observations from a re-analysis of the deposited data

Results flagged for a closer look

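Paqr9 levels were searched for samples that stand apart from the others of their group, by the gap to the next sample over the whole range. Of 23 groups of 4 to 10 samples, 11 values stood apart. Chance gives about 1 in 20 independent groups, but these groups share samples and cells, some have UMIs in only 1 sample, and the bone values chose the gene, so nothing is read from that number. Over all kept cells the highest samples were 114 CPM in biotin positive liver, 0.527 in biotin negative brain, 1.01 in biotin positive lung and 2.29 in biotin negative lung. In mononuclear phagocytes they were 200.8 CPM in biotin positive bone, 0.599 in biotin negative bone, 1.06 in biotin positive lung, 4.52 in biotin negative lung and 78.0 in biotin positive IIA bone. In alveolar macrophages of biotin positive lung 1 sample stood apart with 1.07 CPM and with 1.04% of cells holding a UMI. Each of the intracardiac values came from replicate 2, and that of IIA bone from replicate 4, whose 28 phagocytes gave 11 UMIs. Samples numbered 2 of the intracardiac experiment also held the sample with the most Kupffer cells (818) and the one with the most island macrophages (323). The part of free RNA in these values was not tested.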

How the results depend on the processing

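Of 244 alternative values for 22 results, 212 kept their direction and side of the threshold or moved by less than the spread between samples. The Paqr9 difference in phagocytes of brain (-0.02 CPM) turned to 0.127 CPM in macrophage classes alone and ran from -0.106 to 0.103 CPM when single samples were left out. In lung it was -45.0 CPM in macrophage classes alone, a value with no test that sets 1 negative sample, with 11 of 12 UMIs in 8 Kupffer or island class cells, against mostly alveolar macrophages. It ran from -1.20 to 0.303 CPM in phagocytes and from -0.571 to 0.203 over all kept cells, and in IIA bone from -0.350 to 1.32 over all kept cells, where positive replicate 4 decides the sign. The log2 fold change in bone (8.51, a value set by the 2 UMIs of the negative sort) ran from 7.58 to 10.3. In liver it was 4.81, from 4.07 to 6.17, and 0.25 in macrophage classes alone. A gate of at least 2 of C1qa, C1qb and C1qc in place of clusters lowered the mean in biotin positive bone from 276 to 53.9 CPM. Leaving out samples numbered 2 lowered the share of intracardiac UMIs in the 2 leading classes from 90.0% to 80.2%, an alternative added after seeing the data. Listed genes called in bone (4) became 10 with DESeq2 and 19 without the filter, with 0 to 11 when single samples were left out. Those in liver (9) became 16 with DESeq2, 19 without the filter and 16 with the replicate block, with 0 to 24 when single samples were left out. Macrophage classes alone gave 0 listed genes called in brain (19) and liver, and in lung (25) they left 1 negative sample, so no number is given. The replicate block, or pairing by replicate number, gave 6 listed genes called in bone, 21 in brain and 29 in lung. Its Paqr9 log2 fold change was 8.45 in bone and 4.65 in liver. With complete pairs the block cannot move a difference of mean CPM. It took all genes called from 56 to 105 in bone and from 390 to 599 in liver. In bone the correlations of same-numbered samples were 0.21, 0.30, 0.04 and 0.17, and in IIA bone they ran from 0.06 to 0.32. These values do not settle whether the numbers pair samples there. Spearman correlation kept 5 of the 10 most alike genes and units of 50 cells kept 7, and macrophage units 2. The causes were not tested. DESeq2 was not run for Paqr9 in brain, lung and IIA bone, where it failed the filter, and no macrophage-only fit was possible in bone, where negative samples held 5 to 9 such cells.

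Depth limits what 0 UMIs mean: in bone negative island macrophages 24066 UMIs allow up to 125 CPM, and shares of cells with a UMI depend on depth per cell. Class names were rebuilt here, and samples without a label of their own mouse may be technical replicates.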
